A study of Mus musculus with 6 samples.

Results

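The genes described here are 49 genes that act in mitosis and at the transition from G2 to M phase, chosen as a list of gene symbols from a table of 23951 genes. All 49 symbols were found in the table, and all 49 reached 1 FPKM in at least 2 libraries, the filter that left 11379 genes for testing. Their transcripts were measured by RNA sequencing in 3 untreated mouse melanoma cell lines with 2 libraries each. B16-F1 is the line of low metastatic potential, obtained from a cell repository. B16-F1R2 was derived from a metastasis in a lymph node, and B16-F1R2L was grown out of a lung metastasis that itself came from a lymph node metastasis. The last 2 lines came from another laboratory, so that line and source cannot be told apart, and each is a single line. FPKM, that is fragments per kilobase of a transcript and per 1000000 reads mapped, are relative levels per length.

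In a dividing cell, cyclin B with its kinase Cdk1 starts mitosis, and the Polo-like and Aurora kinases build the spindle. Condensins compact the chromosomes, kinetochores attach them to microtubules, and the spindle checkpoint holds back the anaphase-promoting complex until every chromosome is attached. This complex then marks securin and cyclin B for degradation, the sister chromatids part, and the midzone and the cytokinesis machinery divide the cell. Most of these genes are transcribed in G2 and M phase, through the transcription factors B-Myb and Foxm1 and promoter elements named CHR and CCAAT, and are silenced in resting cells. In bulk RNA, fewer cells in G2 and M phase and less RNA per such cell cannot be told apart.

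The libraries held an estimated 12700000 to 14700000 reads and FPKM sums of 596657 to 672794. At this depth the members rested on an estimated 383 reads at the least, for Ttk, and 9954 at the most, for Top2a. All 7 markers of melanocytes exceeded 1 FPKM in each line, with sums of 14970 and 15007 FPKM in the parental B16-F1, while B16-F1R2 had 8125 and 7909 and B16-F1R2L had 8933 and 8924. The pan-leukocyte gene Ptprc, the B cell gene Ms4a1 and the fibroblast genes Dcn and Lum were listed at 0 in all 6 libraries, as were the endothelial genes Cdh5, Kdr, Tek and Lyve1. The endothelial gene Pecam1 was listed at 0 in both B16-F1 libraries and had 0.752 to 1.26 FPKM in the others, and the macrophage genes Lyz2 and Csf1r went from 0.170 and 0.625 FPKM to values up to 2.05 and from 0 to values up to 0.174. Of the same list Emr1 and Itgam were listed at 0 throughout, and Cd68 had 0.983 to 2.67 FPKM with overlapping lines. Of the 4 B cell markers, 1 (Cd79a) exceeded 1 FPKM, and the list summed to 0 and 0.0593 FPKM in B16-F1 against 12.7 to 17.5 in the other lines. The 5 fibroblast markers summed to 0.962 and 1.19 FPKM in B16-F1 libraries, 18.1 and 18.3 in those of B16-F1R2, 4.50 and 4.65 in those of B16-F1R2L. Col1a1 made up 16.8 and 17.1 of the B16-F1R2 sums. The part of other cells in the results was not tested.

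Promoter sequences are shown for 10 members with the differences described below: 5 that were lower in B16-F1R2L relative to B16-F1R2 (Cdc20, Plk1, Kif22, Aurka and Birc5), and 5 that differed between B16-F1 and both other lines (Pttg1, Cenpe, Mki67, Ncapg and Ncapd2). The sequences are the 150 bases before the RefSeq start on GRCm38.p6, written along the gene's strand. Capitals mark the CHR words TTTGAA and TTTAAA, the word CCAAT and the E2F words TTTCCCGC and TTTGGCGC, read on both strands, so that TTCAAA and ATTGG are matches on the opposite strand.
Cdc20, chr4:118437344-118437493, minus strand: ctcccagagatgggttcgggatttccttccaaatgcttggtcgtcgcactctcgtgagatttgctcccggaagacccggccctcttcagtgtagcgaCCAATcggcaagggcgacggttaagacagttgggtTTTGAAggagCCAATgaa
Plk1, chr7:122159285-122159434, plus strand: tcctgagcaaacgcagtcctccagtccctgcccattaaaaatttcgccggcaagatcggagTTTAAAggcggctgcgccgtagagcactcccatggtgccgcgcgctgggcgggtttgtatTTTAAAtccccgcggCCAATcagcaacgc
Kif22, chr7:127042421-127042570, minus strand: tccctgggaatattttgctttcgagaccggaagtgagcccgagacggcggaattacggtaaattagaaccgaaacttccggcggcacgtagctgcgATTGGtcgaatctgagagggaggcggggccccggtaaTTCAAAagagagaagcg
Aurka, chr2:172370571-172370720, minus strand: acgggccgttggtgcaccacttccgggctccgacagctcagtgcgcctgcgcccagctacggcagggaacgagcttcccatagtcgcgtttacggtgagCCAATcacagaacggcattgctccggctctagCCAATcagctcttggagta
Birc5, chr11:117849087-117849236, plus strand: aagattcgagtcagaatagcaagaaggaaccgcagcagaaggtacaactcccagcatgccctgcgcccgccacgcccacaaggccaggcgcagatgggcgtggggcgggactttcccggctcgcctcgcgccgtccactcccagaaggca
Pttg1, chr11:43425982-43426131, minus strand: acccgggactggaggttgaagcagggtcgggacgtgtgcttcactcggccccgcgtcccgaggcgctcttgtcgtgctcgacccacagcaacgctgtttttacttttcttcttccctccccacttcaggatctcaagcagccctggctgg
Cenpe, chr3:135212413-135212562, plus strand: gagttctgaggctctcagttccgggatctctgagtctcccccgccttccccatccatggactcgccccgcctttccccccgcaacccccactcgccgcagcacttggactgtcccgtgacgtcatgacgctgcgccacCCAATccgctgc
Mki67, chr7:135716380-135716529, minus strand: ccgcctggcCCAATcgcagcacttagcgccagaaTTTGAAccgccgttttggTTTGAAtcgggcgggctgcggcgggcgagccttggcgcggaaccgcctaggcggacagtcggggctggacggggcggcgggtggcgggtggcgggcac
Ncapg, chr5:45669775-45669924, plus strand: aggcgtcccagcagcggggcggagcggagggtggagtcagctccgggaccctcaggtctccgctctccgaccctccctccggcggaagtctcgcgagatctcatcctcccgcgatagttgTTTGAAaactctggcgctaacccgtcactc
Ncapd2, chr6:125191587-125191736, minus strand: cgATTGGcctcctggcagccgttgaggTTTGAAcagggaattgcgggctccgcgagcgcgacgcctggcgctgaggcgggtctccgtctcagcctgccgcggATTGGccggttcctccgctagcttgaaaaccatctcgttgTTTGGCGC
In Cdc20 the CHR word began 18 bases before the start and the CCAAT words 53 and 8 bases before it. In Kif22 the words stood at similar places, the CHR word 17 and the CCAAT word 54 bases before the start. Plk1 held 2 copies of TTTAAA. Ncapd2, which was lower in both metastatic lines, and Mki67 and Ncapg, which were higher, each had at least 1 CHR word in the stretch shown. Aurka, Birc5, Pttg1 and Cenpe, which has the largest rise in B16-F1R2, held no CHR word in these bases, and Birc5 and Pttg1 no CCAAT either. A match is a description of letters and not of binding.

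RefSeq windows of 300 bases around the start, most of it upstream, were matched for 42 of the 49 members, which have 44 windows. Windows were not matched for Cdca2, Tpx2, Aurkb, Kif20a, Foxm1, Smc4 and Ccna2. A CHR word stood in 36 of the 44 member windows (81.8%), against 46.7% of 92 windows of other mitotic genes, 20.5% of 44 windows of S phase genes and 27.6% of all 32851 windows. TTTGAA made up most of these, with 75% of member windows and 17.9% of all windows. CCAAT occurred in 75% of member windows and 37.4% of all windows, and both a CHR word and CCAAT in 70.5% and 10.7%. The E2F words were in 4.55% of member windows, 27.3% of S phase windows and 1.56% of all windows. Over the 11042 windows of tested genes, a CHR word stood in 19.1%, CCAAT in 38.1%, both in 7.63% and the E2F words in 3.01%. Counted by gene, all 8 members with a window that were lower in B16-F1R2L relative to B16-F1R2 held a CHR word, and 26 of the 34 members that did not pass the threshold in that comparison did so too.

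Most of the mitosis genes had a mean level above that of the middle tested gene. Together they made 2702 and 2731 FPKM in B16-F1, next to 2852 and 2834 in B16-F1R2 and to 2679 and 2686 in B16-F1R2L, which is 0.416% to 0.450% of each library's FPKM sum. Birc5 (survivin, a subunit of the chromosomal passenger complex) was the highest member by mean level, with 191 and 198 FPKM in B16-F1, next to 179 and 175 in B16-F1R2 and to 155 and 156 in B16-F1R2L. The B16-F1R2L libraries were below the others and the B16-F1 libraries above. Next were Ube2c, the ubiquitin-conjugating enzyme of the anaphase-promoting complex, with a mean of 147 FPKM, and Cdca3, a factor of entry into mitosis, with 134. The lowest members were Ttk (mean 12.7 FPKM), the checkpoint kinase Mps1, Cenpe (11.1) and Cenpf (10.9), both proteins of the outer kinetochore. By mean level Ttk, Cenpe and Cenpf ranked at 48.2%, 44.4% and 43.75% of the tested genes, below the middle, and the other members ranked above it.

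**Figure D1:**
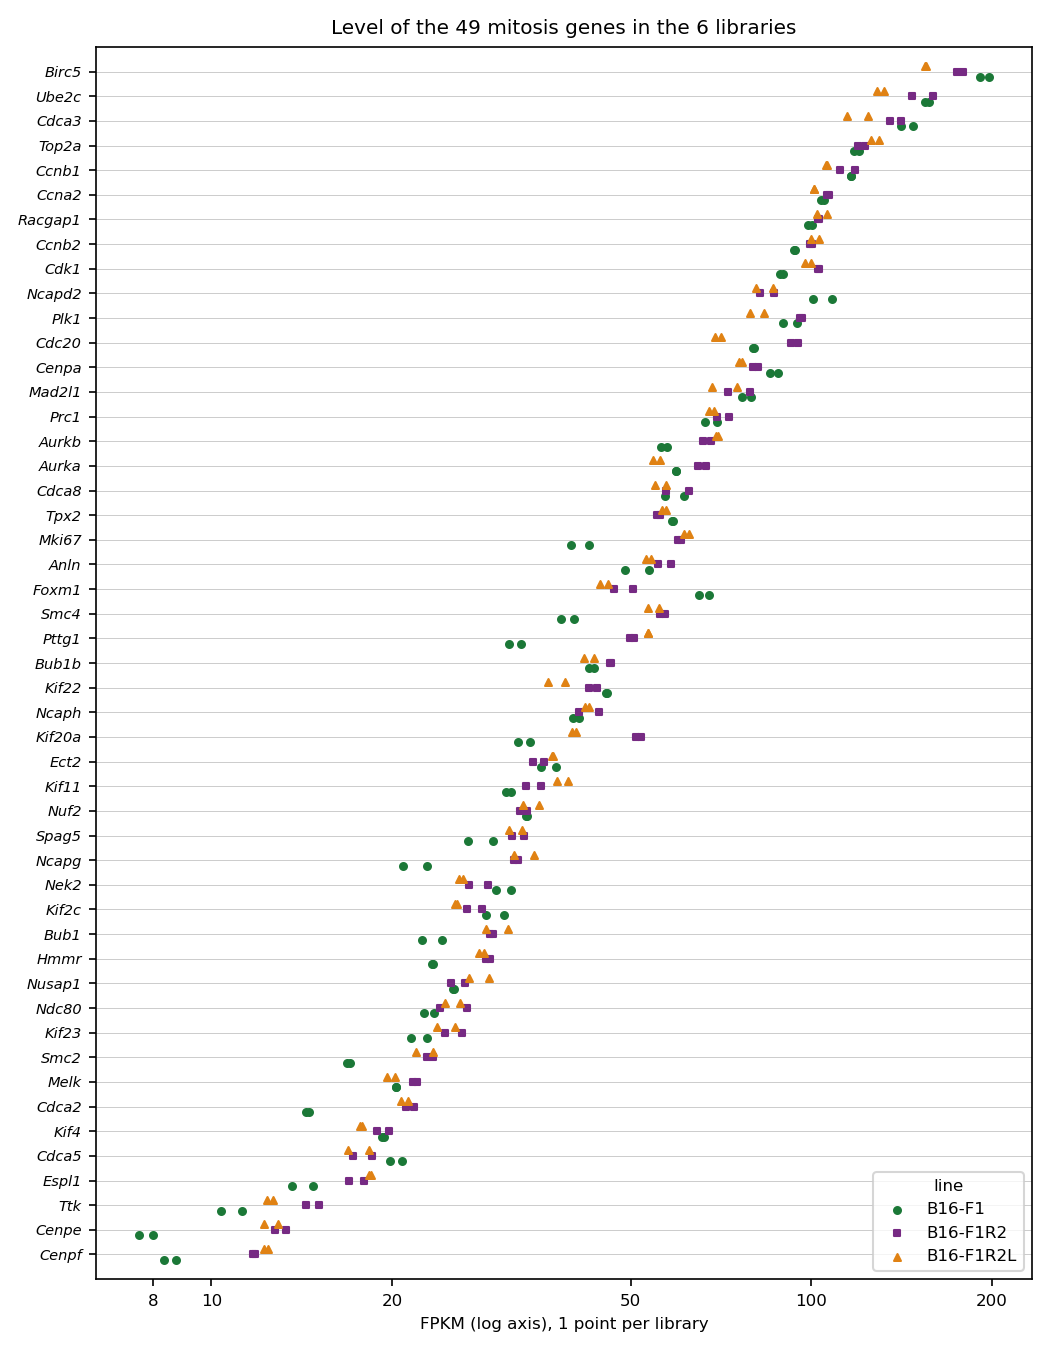
FPKM on a log axis of each of the 49 mitosis genes (rows, ordered by mean) in the 6 libraries, 1 point per library, with the line given by colour and shape. The 2 libraries of a line mostly lie close together, and the B16-F1 points stand apart for genes such as Pttg1, Cenpe, Mki67, Foxm1 and Ncapd2.

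The 2 libraries of a line differed less for these genes than over all tested genes, a set not matched to them by level. On the log2 scale their median difference was 0.051 (B16-F1), 0.045 (B16-F1R2) and 0.037 (B16-F1R2L), against 0.067, 0.085 and 0.095 over all tested genes. The first principal component of the members held 82.9% of their variance and set B16-F1 apart from both metastatic lines. The second, with 13.2%, separated B16-F1R2 from B16-F1R2L. Over all tested genes the first and second components held 63.3% and 12.4%.

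The first comparison asks how the lymph node metastatic line differed from B16-F1. In B16-F1R2, 19 of the 49 members were higher and 3 lower than in B16-F1 (adjusted p under 0.05 by limma), and 27 did not pass the threshold. Over all tested genes 28.2% were higher and 27.2% lower. Thus 38.8% of the members were higher and 6.12% lower. Their median log2 fold change was 0.09 (0.01 over all tested genes), and the median size of the change was 0.14, which was smaller than the 0.28 over all tested genes. No member reached a log2 fold change of 1 in either direction, and 7 reached 0.5. For 18 of the 22 calls, direction and side of the threshold held under 17 alternatives, which here and below leave aside the minimum fold change of 2. The other 4 calls (Aurka, Birc5, Spag5 and Kif23) were lost on leaving out single libraries of B16-F1 or B16-F1R2, with adjusted p from 0.051 to 0.20.

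B16-F1R2L, the line from the lung metastasis, was compared with B16-F1 next. Here 18 members were higher (36.7%), 13 lower (26.5%) and 18 not past the threshold, with 29.5% of all tested genes higher and 27.1% lower, so that the share of lower members was near that of all tested genes. The median log2 fold change of the members was 0.06 (0.02 over all tested genes), and 7 members reached a size of 0.5. When each library was rescaled to a sum of 1000000, the median of all genes moved to 0.13 and that of the members to 0.16, the share of all calls that were higher went from 52.1% to 67.0%, and 6 members remained lower. Without the second B16-F1 library, 7 members were lower. Under all 18 alternatives 13 of the higher and 6 of the lower calls held, and 10 calls were lost on leaving out 1 library. Both comparisons use the same B16-F1 libraries, so their values below stand side by side and are not independent.

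**Figure D2:**
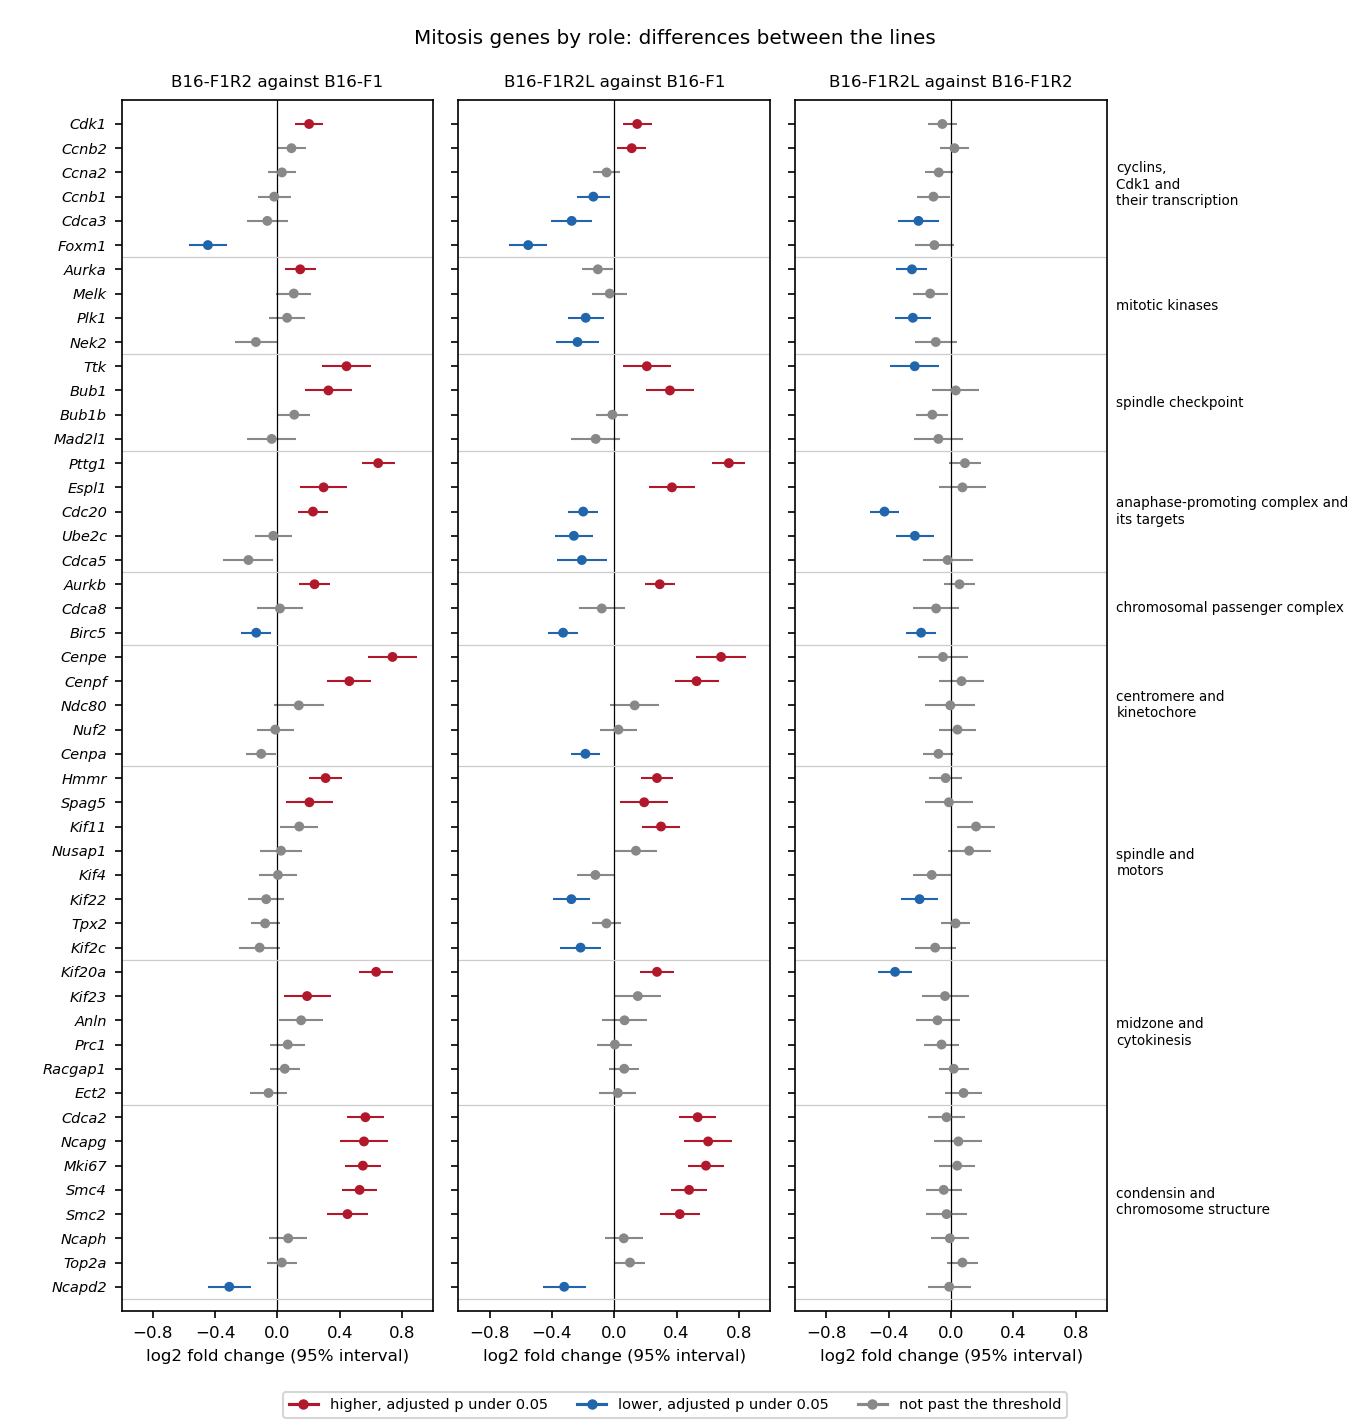
Log2 fold change with its 95% interval (limma) for the 49 mitosis genes, grouped by role from top to bottom, in the 3 comparisons from left to right, with genes past the threshold in red (higher) or blue (lower). Condensin and chromosome genes are mostly red in both comparisons with B16-F1, and the third comparison has 9 blue points and no red ones.

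Of the 6 genes of cyclins, Cdk1 and their transcription, 2 passed the threshold in the first comparison (33.3%, against 55.4% of all tested genes) and 5 in the second (83.3% against 56.7%), and Foxm1 had the largest difference in each. Foxm1, the forkhead factor that drives transcription of G2 and M phase genes, was at 65.1 and 67.5 FPKM in the parental B16-F1, while B16-F1R2 had 46.9 and 50.4 and B16-F1R2L had 45.8 and 44.5. Both B16-F1 libraries were above the 4 others. It fell by 0.45 ± 0.05 on the log2 scale (SE, adjusted p = 0.00059 by limma) in B16-F1R2 and by 0.55 ± 0.05 (adjusted p = 0.00024) in B16-F1R2L. An exon of Foxm1 overlaps one of 4933413G19Rik on the same strand, and reads of these genes may not be separable.

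Cdk1, the kinase that starts mitosis, had 88.7 and 89.7 FPKM in B16-F1 libraries, 103 and 103 in those of B16-F1R2, 97.5 and 100 in those of B16-F1R2L. It was higher by 0.20 in B16-F1R2 (adjusted p = 0.0046) and by 0.15 in B16-F1R2L (adjusted p = 0.017), the second of which was lost without single libraries (adjusted p = 0.057 to 0.099). Its partner cyclin B1 (Ccnb1) had 117 and 117 FPKM in B16-F1, next to 118 and 112 in B16-F1R2 and to 106 and 106 in B16-F1R2L. Its log2 fold change was -0.02 in B16-F1R2, with a 95% interval of -0.13 to 0.09, and -0.13 in B16-F1R2L (adjusted p = 0.038), a call that was lost without any 1 of the 4 libraries compared (adjusted p = 0.091 to 0.15). It was also lost under the rescaling to a common sum and under quantile normalization, with a value of -0.03 in each and adjusted p up to 0.54. With GC content and length corrected it was -0.25 (adjusted p = 0.00094). Of its 50-base stretches 57.2% also occur elsewhere in the genome, so the assignment of its reads is uncertain. Cyclin B2 (Ccnb2) was higher in B16-F1R2L by 0.11 (adjusted p = 0.046), which was lost without single libraries (adjusted p = 0.062 to 0.17). Cyclin A2 (Ccna2) passed the threshold in neither comparison, with log2 fold changes of 0.03 and -0.05. Cdca3 fell in B16-F1R2L, by 0.27 (adjusted p = 0.0058), with 141 and 148 FPKM in the parental B16-F1, while B16-F1R2 had 141 and 135 and B16-F1R2L had 124 and 115.

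The mitotic kinases showed small differences. Plk1, the Polo-like kinase of centrosomes and kinetochores, had 89.7 and 94.6 FPKM in B16-F1 libraries, 95.9 and 96.5 in those of B16-F1R2, 83.4 and 79.0 in those of B16-F1R2L. The libraries of B16-F1R2L were the lowest. Its log2 fold change was 0.06 in B16-F1R2, with an interval of -0.05 to 0.18, and it fell by 0.18 in B16-F1R2L (adjusted p = 0.017, and 0.12 without the second B16-F1 library). Rescaling and quantile normalization brought this fall down to as little as -0.07, with adjusted p up to 0.24. Aurora A (Aurka), the kinase of the spindle poles, had 59.5 and 59.5 FPKM in B16-F1, next to 66.9 and 64.8 in B16-F1R2 and to 54.6 and 56.0 in B16-F1R2L. It was higher in B16-F1R2 by 0.15 (adjusted p = 0.022, and 0.10 without either B16-F1 library), and its log2 fold change in B16-F1R2L was -0.10 (adjusted p = 0.068). The centrosomal kinase Nek2 fell by 0.24 in B16-F1R2L (adjusted p = 0.013, and 0.084 without the second B16-F1 library), and with libraries rescaled to a common sum it was at -0.13 (adjusted p = 0.17). Melk passed the threshold in neither comparison, with log2 fold changes of 0.10 and -0.03.

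Of the 4 checkpoint genes, the same 2 were called in both lines, each time higher. That is 50% called, against 55.4% and 56.7% of all tested genes, and 50% higher, against 28.2% and 29.5%. Bub1, the checkpoint kinase at kinetochores, had 24.3 and 22.4 FPKM in the parental B16-F1, while B16-F1R2 had 29.1 and 29.5 and B16-F1R2L had 28.7 and 31.2, a rise of 0.33 (adjusted p = 0.0050) and 0.36 (adjusted p = 0.0035). Ttk rose by 0.44 in B16-F1R2 (adjusted p = 0.0016) and by 0.21 in B16-F1R2L (adjusted p = 0.032, 0.17 without the second B16-F1 library, and 0.30 at a value of 0.08 with GC content and length corrected), from 11.2 and 10.4 FPKM to 14.4 and 15.1 and to 12.4 and 12.7. Bub1b, which encodes BubR1, and Mad2l1, which encodes Mad2, are the other two; their log2 fold changes of 0.11 and -0.04 in B16-F1R2, next to -0.01 and -0.12 in B16-F1R2L, did not pass the threshold. With GC content and length corrected, Mad2l1 was lower in both lines, at -0.23 (adjusted p = 0.0030) and -0.33 (adjusted p = 0.00045), and Bub1b was higher in B16-F1R2, at 0.14 (adjusted p = 0.014).

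Of 5 genes of the anaphase-promoting complex and its targets, 3 were higher and 0 lower by limma in B16-F1R2 (60% called, against 55.4% of all tested genes). In B16-F1R2L 2 were higher and 3 lower, so that all 5 were called, against 56.7%. Pttg1, which encodes securin, the inhibitor of the protease separase, had 31.3 and 32.8 FPKM in B16-F1 libraries, 49.9 and 50.6 in those of B16-F1R2, 53.5 and 53.5 in those of B16-F1R2L. All 4 libraries of the metastatic lines were above B16-F1, by 0.65 ± 0.04 (SE, adjusted p = 6.3e-05) and 0.74 ± 0.04 (adjusted p = 3.7e-05). Espl1, which encodes separase itself, rose by 0.30 (adjusted p = 0.0072) and 0.37 (adjusted p = 0.0029), from 13.6 and 14.8 FPKM to 17.0 and 17.9 and to 18.5 and 18.3.

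Cdc20, the activator of the anaphase-promoting complex, had 80.1 and 80.2 FPKM in B16-F1, next to 95.2 and 92.7 in B16-F1R2 and to 70.6 and 69.0 in B16-F1R2L. The 3 lines did not overlap, with B16-F1R2 the highest and B16-F1R2L the lowest. It was 0.23 ± 0.04 higher in B16-F1R2 (adjusted p = 0.0032) and fell by 0.20 ± 0.04 in B16-F1R2L (adjusted p = 0.0057), the only member called in opposite directions in the 2 lines. An exon of Cdc20 overlaps one of Elovl1 on the opposite strand, 11.5% of its 50-base stretches occur elsewhere in the genome, and how strand was used in counting is not known. The second call was lost under the rescaling to a common sum and under quantile normalization, at the most with an adjusted p of 0.15. Ube2c fell by 0.26 in B16-F1R2L (adjusted p = 0.0051), to 132 and 129 FPKM from the 158 and 155 of B16-F1. It had 160 and 148 in B16-F1R2. Across the alternatives, its change in B16-F1R2L ranged from -0.28 to -0.12. Cdca5, which encodes sororin, the protector of cohesion, fell by 0.21 in B16-F1R2L (adjusted p = 0.036, 0.17 without the first B16-F1 library, and 0.28 at a value of -0.11 when rescaled), and its log2 fold change in B16-F1R2 was -0.19 (adjusted p = 0.052).

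Subunits of the chromosomal passenger complex did not move together. Aurora B (Aurkb), its kinase, had 56.2 and 57.5 FPKM in the parental B16-F1, while B16-F1R2 had 66.1 and 68.0 and B16-F1R2L had 69.3 and 69.9, a rise of 0.24 (adjusted p = 0.0030) and 0.29 (adjusted p = 0.0013). Birc5 fell by 0.14 in B16-F1R2 (adjusted p = 0.028, and 0.18 without the second B16-F1 library) and by 0.33 in B16-F1R2L (adjusted p = 0.00078). Cdca8, which encodes borealin, passed the threshold in neither, with log2 fold changes of 0.02 and -0.08.

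Of the 5 genes of the centromere and kinetochore, 2 were called in B16-F1R2, both higher (40% called, against 55.4% of all tested genes). In B16-F1R2L 2 were higher and 1 lower (60% called, against 56.7%). Cenpe, the kinesin that moves chromosomes to the spindle equator, had 8.00 and 7.57 FPKM in B16-F1 libraries, 13.3 and 12.8 in those of B16-F1R2, 12.2 and 12.9 in those of B16-F1R2L. Its rise of 0.74 ± 0.07 (adjusted p = 0.00020) was the largest of all members in B16-F1R2, and that in B16-F1R2L was 0.69 ± 0.07 (adjusted p = 0.00027). Cenpf rose by 0.46 (adjusted p = 0.00090) and 0.53 (adjusted p = 0.00050), from 8.73 and 8.32 FPKM to 11.8 and 11.7 and to 12.3 and 12.4. The centromeric histone Cenpa had 85.4 and 88.0 FPKM in B16-F1, next to 81.4 and 79.9 in B16-F1R2 and to 75.8 and 76.7 in B16-F1R2L, and it fell by 0.18 in B16-F1R2L (adjusted p = 0.0077, and 0.065 without the second B16-F1 library). This value was as small as -0.06, with adjusted p up to 0.25, under the same pair of scalings. The partners Ndc80 and Nuf2, which bind microtubules as one complex, had log2 fold changes of 0.14 and -0.01 in B16-F1R2, next to 0.13 and 0.03 in B16-F1R2L, none of them past the threshold.

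Of 8 spindle proteins and motors, 2 passed the threshold in B16-F1R2, both higher (25% called, against 55.4% of all tested genes), and 3 were higher and 2 lower in B16-F1R2L (62.5% against 56.7%). Hmmr, a microtubule-binding protein of the spindle, rose by 0.31 (adjusted p = 0.0014) and 0.27 (adjusted p = 0.0023, and 0.060 at a value of 0.12 with GC content and length corrected), and Spag5 (astrin) by 0.21 (adjusted p = 0.031) and 0.19 (adjusted p = 0.039); each Spag5 call was lost without single libraries (adjusted p up to 0.17 and 0.21). Kif11, the kinesin that pushes the spindle poles apart, had 31.5 and 30.96 FPKM in the parental B16-F1, while B16-F1R2 had 33.5 and 35.5 and B16-F1R2L had 37.7 and 39.3. It rose in B16-F1R2L by 0.30 (adjusted p = 0.0028), and in B16-F1R2 its log2 fold change was 0.14 (adjusted p = 0.052). Kif22, a chromosome-bound kinesin, had 45.5 and 45.6 FPKM in B16-F1 libraries, 44.0 and 42.7 in those of B16-F1R2, 38.8 and 36.5 in those of B16-F1R2L, and fell by 0.27 in B16-F1R2L (adjusted p = 0.0035). Kif2c, a kinesin that takes microtubules apart, fell by 0.22 in B16-F1R2L (adjusted p = 0.016, 0.10 without the second B16-F1 library, and 0.13 at a value of -0.11 when rescaled). Tpx2, Kif4 and Nusap1 passed the threshold in neither comparison, with log2 fold changes between -0.12 and 0.14.

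Among midzone and cytokinesis genes the values turn on Kif20a, the kinesin Mklp2 that carries the passenger complex to the midzone. It had 34.0 and 32.5 FPKM in B16-F1, next to 51.1 and 52.1 in B16-F1R2 and to 39.9 and 40.6 in B16-F1R2L. The 3 lines did not overlap, and B16-F1R2 was the highest. An exon of Kif20a overlaps one of Cdc23 on the opposite strand, and Cdc23 itself was higher by 0.38 in B16-F1R2. It rose by 0.63 ± 0.04 in B16-F1R2 (adjusted p = 7.7e-05) and by 0.27 ± 0.04 in B16-F1R2L (adjusted p = 0.0026). Kif23, the other midzone kinesin, was higher by 0.19 in B16-F1R2 (adjusted p = 0.040, and 0.20 without the second B16-F1 library). Prc1, Racgap1, Anln and Ect2, which organise the midzone and the contractile ring, had log2 fold changes between -0.06 and 0.15 in B16-F1R2 and between 0.00 and 0.07 in B16-F1R2L and did not pass the threshold.

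In the condensin and chromosome group each line had 5 of 8 genes higher and 1 lower, 75.0% called against 55.4% and 56.7% of all tested genes. Ncapg, a subunit of condensin I, had 22.9 and 20.9 FPKM in the parental B16-F1, while B16-F1R2 had 31.9 and 32.4 and B16-F1R2L had 32.0 and 34.5. The ATPase subunits Smc2, with 17.0 and 16.8, 22.9 and 23.4, and 21.9 and 23.5 FPKM, and Smc4, with 40.2 and 38.2, 57.1 and 56.0, and 53.6 and 55.9 FPKM in the order B16-F1, B16-F1R2 and B16-F1R2L, are its partners. All 3 had both B16-F1 libraries below the 4 others. In B16-F1R2 they rose by 0.56, 0.45 and 0.53 (adjusted p = 0.00060, 0.00067 and 0.00020), and in B16-F1R2L by 0.60, 0.42 and 0.48 (adjusted p = 0.00042, 0.00089 and 0.00030).

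Ncapd2, another subunit of condensin I, went the other way. It had 101 and 108 FPKM in B16-F1 libraries, 82.2 and 86.6 in those of B16-F1R2, 86.5 and 80.9 in those of B16-F1R2L, a fall of 0.31 ± 0.06 (adjusted p = 0.0045) and 0.32 ± 0.06 (adjusted p = 0.0039). The kleisin subunit Ncaph had log2 fold changes of 0.07 and 0.06, neither past the threshold. These opposite calls of Ncapg, Smc2 and Smc4 on one side and Ncapd2 on the other held under every alternative other than the minimum fold change.

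Mki67, which encodes the proliferation marker Ki-67, a coat protein of mitotic chromosomes, had 42.7 and 39.8 FPKM in B16-F1, next to 59.98 and 60.6 in B16-F1R2 and to 62.5 and 61.4 in B16-F1R2L. The 4 libraries of the metastatic lines were above both B16-F1 libraries, by 0.55 ± 0.05 (adjusted p = 0.00019) and 0.59 ± 0.05 (adjusted p = 0.00014). Top2a, DNA topoisomerase II alpha and another marker of proliferating cells, had 120 and 118 FPKM in the parental B16-F1, while B16-F1R2 had 120 and 123 and B16-F1R2L had 126 and 130. Its log2 fold change was 0.03 in B16-F1R2, with an interval of -0.07 to 0.13. In B16-F1R2L it was 0.10, with an interval of 0.00 to 0.20 (adjusted p = 0.075 by limma). Under the rescaling to a common sum and under quantile normalization it was called higher there, at values up to 0.23 (adjusted p down to 0.0081 by limma). With GC content and length corrected the value was -0.02 (adjusted p = 0.64). Cdca2, which brings protein phosphatase 1 to chromatin, rose by 0.56 (adjusted p = 0.00019) and 0.54 (adjusted p = 0.00023), from 14.4 and 14.6 FPKM to 21.1 and 21.8 and to 20.7 and 21.3.

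For Cdca2 the genes around it differed by a like amount in both lines. It lies on chromosome 14, where the 363 tested genes had a median log2 fold change of 0.33 in B16-F1R2 and the 52 within 5 Mb one of 0.51, with 0.33 and 0.51 in B16-F1R2L. On chromosome 11, Hmmr had 0.31 next to a median of 0.26 over its 13 neighbours in B16-F1R2, and 0.27 next to 0.12 in B16-F1R2L. Birc5, on the same chromosome, had -0.14 next to -0.11 over 135 neighbours in B16-F1R2, and -0.33 next to -0.14 in B16-F1R2L. For Cenpe on chromosome 3 and Mki67 on chromosome 7 the medians within 5 Mb in B16-F1R2 were -0.06 and 0.04, far from the genes' own values. Pttg1 on chromosome 11 had a median of 0.31 over 17 neighbours, and Foxm1 and Ncapd2 on chromosome 6 had -0.08 and -0.11. Ndc80 on chromosome 17 lay against its surroundings, with 0.14 next to -0.40 over 23 neighbours in B16-F1R2, and 0.13 next to -0.45 in B16-F1R2L. The 526 tested genes of that chromosome had a median of -0.34 in both lines. The part of chromosome content was not tested.

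The third comparison sets B16-F1R2L against B16-F1R2, both from the same source. Here 9 of the 49 members were lower (18.4%), 40 did not pass the threshold and 0 were higher by limma, where 1 (Kif11) had an unadjusted p under 0.05 with a positive log2 fold change. Over all tested genes 12.1% were higher and 10.5% lower. The median log2 fold change was -0.05 for the members and 0.02 for all tested genes. With each library rescaled to a sum of 1000000 these medians were 0.06 and 0.13, the share of all calls that were higher went from 53.7% to 80.7%, and 2 members (Cdc20 and Kif20a) were lower and 2 (Pttg1 and Kif11) higher.

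The largest difference was in Cdc20, which was 0.43 ± 0.04 lower in B16-F1R2L (SE, adjusted p = 0.0030), and the next in Kif20a, which was lower by 0.36 ± 0.04 (adjusted p = 0.0066). Both calls held under all 17 alternatives. Aurka fell by 0.25 (adjusted p = 0.012), Plk1 by 0.24 (adjusted p = 0.018), Ttk by 0.23 (adjusted p = 0.047), Ube2c by 0.23 (adjusted p = 0.024), Cdca3 by 0.21 (adjusted p = 0.040), Kif22 by 0.20 (adjusted p = 0.032) and Birc5 by 0.19 (adjusted p = 0.023). For each of these 9 genes both B16-F1R2L libraries were below both B16-F1R2 libraries. The last 7 calls were lost on leaving out single libraries, with adjusted p from 0.053 to 0.17. The count of lower members was 4 without either B16-F1 library, 2 without the first and 4 without the second B16-F1R2 library, 6 without the first and 3 without the second B16-F1R2L library.

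**Figure D3:**
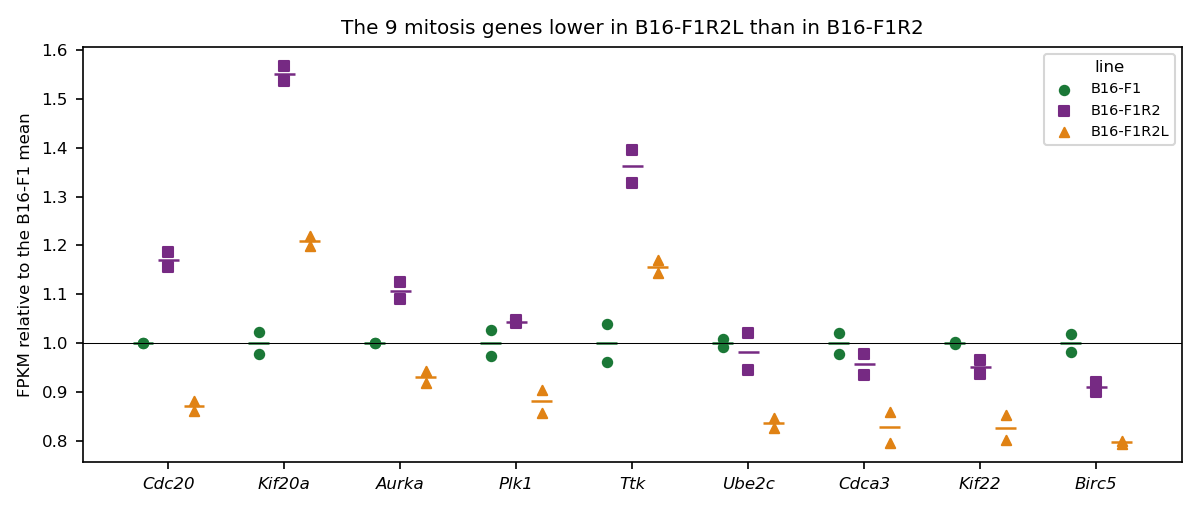
FPKM of the 9 mitosis genes that were lower in B16-F1R2L relative to B16-F1R2, each divided by the mean of the 2 B16-F1 libraries, with 1 point per library and a bar at each line's mean. Cdc20 lies above B16-F1 in B16-F1R2 and below it in B16-F1R2L, and Kif20a and Ttk lie above B16-F1 in both.

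None of the 8 condensin and chromosome genes passed the threshold here by limma without a correction. Ncapg, Smc2, Smc4, Ncapd2, Mki67 and Cdca2 had log2 fold changes between -0.05 and 0.05 in B16-F1R2L against B16-F1R2, with 95% intervals no wider than -0.16 to 0.20. With GC content and length corrected, Smc2 was at -0.15 (adjusted p = 0.040), Smc4 at -0.15 (adjusted p = 0.036) and Foxm1 at -0.14 (adjusted p = 0.028), all called lower. Pttg1 was at 0.09, with an interval of -0.02 to 0.19, and Foxm1 at -0.11, with an interval of -0.23 to 0.02.

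The fold changes of the mitosis genes were related to the base composition and to the length of their transcripts. Over the 49 members, Pearson's r between GC content and log2 fold change was -0.42 and Spearman's rho -0.37 for B16-F1R2, and for B16-F1R2L they were -0.55 and -0.56, each set against B16-F1. Over 10192 tested genes r was 0.02 and 0.00 and rho -0.12 and -0.19, and over 100 other mitotic genes r was -0.48 and -0.58 and rho -0.46 and -0.58. The points are genes measured in the same libraries and not independent replicates. The 18 members with under 45% GC, among them Ncapg, Smc2, Smc4 and Cenpe, had a median log2 fold change of 0.23 in B16-F1R2 and 0.24 in B16-F1R2L, against 0.06 and -0.05 for the 31 others. In the 2270 tested genes with under 45% GC, the medians were 0.09 and 0.16, against -0.03 and -0.04 for the other tested genes. For B16-F1R2L against B16-F1R2, r over the members was -0.45 and rho -0.42. The values were -0.07 and -0.11 over the 10192 tested genes, and -0.31 and -0.34 over the 100 other mitotic genes. For the log2 length of the longest transcript, r over the members was 0.36 in B16-F1R2 and 0.47 in B16-F1R2L, each against B16-F1. It was 0.37 for B16-F1R2L against B16-F1R2.

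When the dependence on GC content and length was removed, all 19 members called higher and all 3 called lower in B16-F1R2 were still called, together with 3 more higher (Bub1b, Racgap1 and Anln) and 6 more lower (Ccnb1, Mad2l1, Cdca5, Cenpa, Nuf2 and Ect2). In B16-F1R2L 15 of the 18 higher and all 13 lower members were still called, with 6 more lower (Ccna2, Aurka, Mad2l1, Nuf2, Kif4 and Ect2), and Ccnb2, Ttk and Hmmr were lost. Several rises there became smaller by over 1.5 times, that of Smc2 from 0.42 to 0.20, Bub1 from 0.36 to 0.18, Kif11 from 0.30 to 0.15, Smc4 from 0.48 to 0.29, Cenpf from 0.53 to 0.34 and Ncapg from 0.60 to 0.40, and all 6 were still called. Against B16-F1R2, all 9 lower members were still called and 9 more were lower (Ccna2, Ccnb1, Foxm1, Melk, Bub1b, Kif4, Anln, Smc2 and Smc4).

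**Figure D4:**
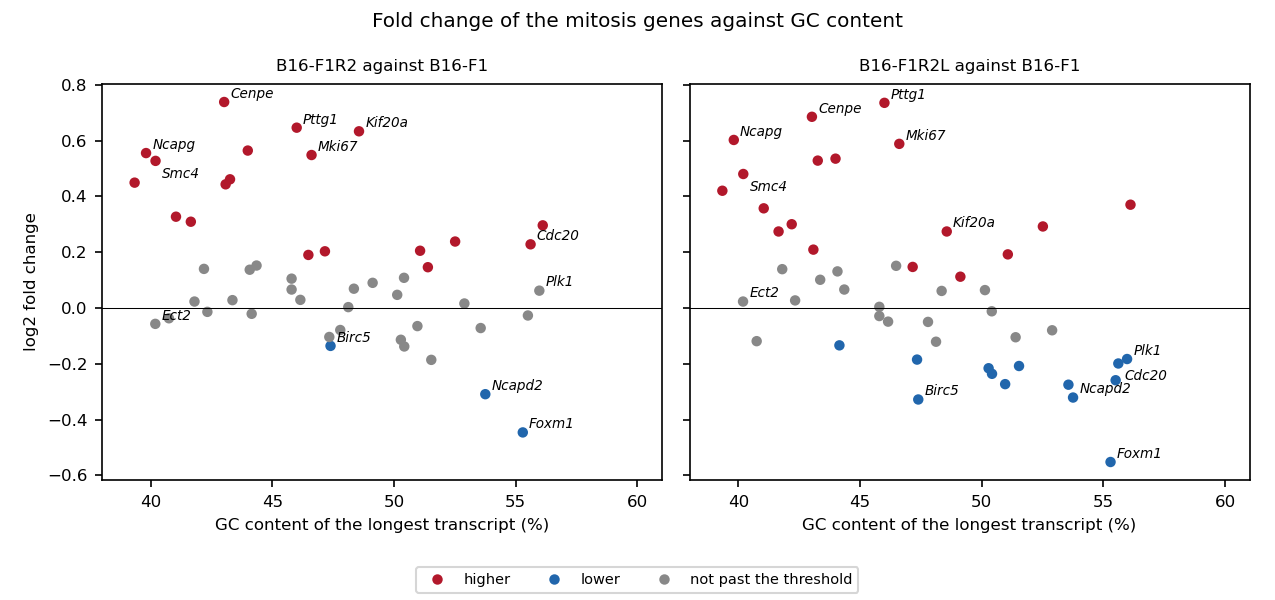
Log2 fold change of each of the 49 mitosis genes against the GC content (%) of its longest transcript, for B16-F1R2 (left) and B16-F1R2L (right) against B16-F1, with genes past the threshold in red or blue. Ncapg, Smc2 and Smc4, at low GC content, lie above 0, Mad2l1 at a like GC content lies below 0 in both panels, and Foxm1 and Ncapd2 are among the lower points at high GC content.

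Other genes of mitosis, formed a further list of 105 genes. In B16-F1R2 45 were higher and 17 lower (42.9% and 16.2%, against 38.8% and 6.12% of the members and 28.2% and 27.2% of all tested genes), with a median log2 fold change of 0.14. The largest rises were in Cdkn3, a phosphatase that acts on Cdk1 (0.82), Dlgap5, a spindle protein (0.72), and Kif20b, a relative of Kif20a (0.71). The largest falls were in Pkmyt1 (-0.63) and Cdc25b (-0.50), a kinase and a phosphatase that act on Cdk1 in opposite ways, and in Zw10 (-0.58), a kinetochore protein.

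In B16-F1R2L 39 of these genes were higher (37.1%, and 24 genes without the second B16-F1 library) and 20 lower (19.0%), against 29.5% and 27.1% of all tested genes, with Oip5 (0.83), Nipbl (0.68) and the condensin II subunit Ncapg2 (0.61) the highest and Zw10 (-0.81), Ccnf (-0.70) and Ube2s (-0.62) the lowest. Oip5 overlaps the member Nusap1 on the opposite strand, and further members with such an overlap are Ccna2 (Exosc9), Ube2c (Tnnc2), Cdca8 (9930104L06Rik), Kif4 (Pdzd11) and Ncapg (Lcorl). Against B16-F1R2, 1 was higher, Hjurp (0.28), and 16 lower (0.952% and 15.2%, against 12.1% and 10.5% of all tested genes), led by Spdl1 (-0.37), Cdc25a (-0.35) and Ube2s (-0.30), and this count was 0 without the first B16-F1R2 or the second B16-F1R2L library.

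In B16-F1R2, 22 of the 48 S phase genes were higher and 5 lower (45.8% and 10.4%, against 28.2% and 27.2% of all tested genes). Orc6 (0.53), Rfc4 (0.53) and Prim2 (0.53), genes of replication origins and of DNA synthesis, rose most, and Lig1 (-0.55), Tk1 (-0.38) and Uhrf1 (-0.31) fell most. In B16-F1R2L 12 were higher, led by Rfc4 (0.54), Prim1 (0.45) and Rpa3 (0.44), and 13 lower, led by Lig1 (-0.65), Tk1 (-0.51) and Uhrf1 (-0.44); these shares of 25.0% and 27.1% were near the 29.5% and 27.1% of all tested genes. Against B16-F1R2, 14 of them (29.2%, against 10.5% of all tested genes) were lower by limma and 0 higher (1 at an unadjusted p under 0.05), with Orc1 (-0.58), Cdc6 (-0.39) and Tyms (-0.34) the lowest. Mcm2, a subunit of the replicative helicase, and Pcna, the sliding clamp, passed the threshold in B16-F1R2L against B16-F1 (-0.23 and -0.18), with adjusted p of 0.016 and 0.023 by limma.

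**Figure D5:**
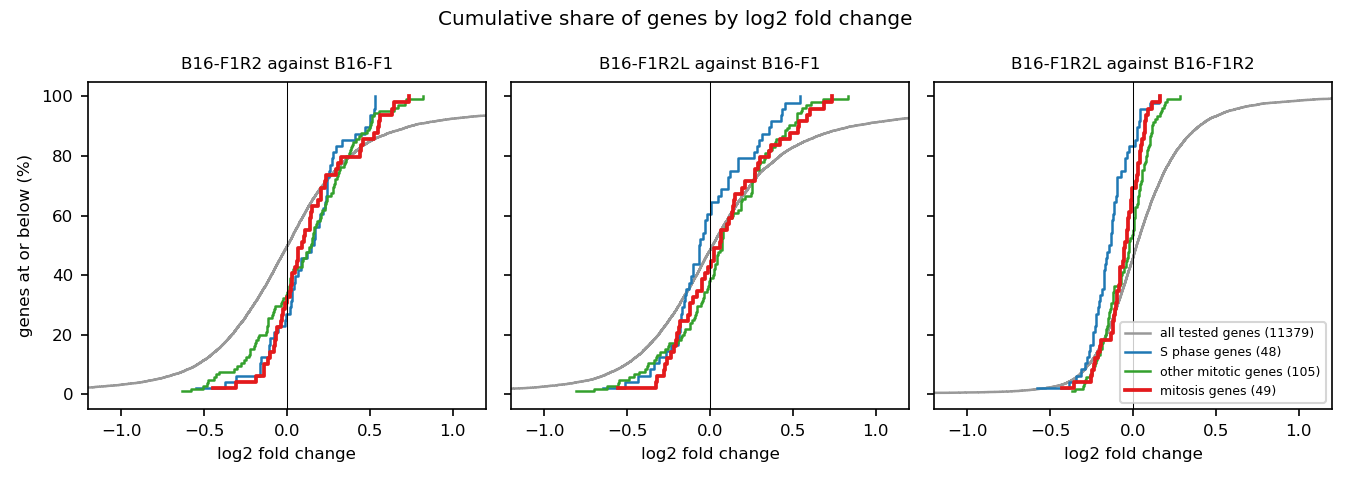
Cumulative share of genes (%) at or below each log2 fold change, for the 49 mitosis genes, 105 other mitotic genes, 48 S phase genes and all 11379 tested genes, in the 3 comparisons. In B16-F1R2 against B16-F1 the lists lie to the right of all tested genes around 0, and their spread is narrower.

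Of 35 regulators of the cell cycle, 6 were higher and 13 lower in B16-F1R2 (17.1% and 37.1%, against 28.2% and 27.2% of all tested genes). In B16-F1R2L, 5 were higher and 14 lower (14.3% and 40.0%, against 29.5% and 27.1%). Cyclin D1 (Ccnd1), which starts the G1 phase programme, had 64.5 and 63.7 FPKM in B16-F1 libraries, 33.9 and 33.2 in those of B16-F1R2, 22.1 and 21.4 in those of B16-F1R2L. The 3 lines did not overlap, with falls of 0.93 ± 0.04 (SE, adjusted p = 1.4e-05) and 1.56 ± 0.04 (adjusted p = 2.0e-06), and 0.62 ± 0.04 between the metastatic lines (adjusted p = 0.0013). The inhibitor Cdkn2c fell by 1.04 and 1.14, Nfya, a subunit of the factor that binds CCAAT, by 0.84 in B16-F1R2, and Ccnd3 by 0.93 in B16-F1R2L. Cyclin E1 (Ccne1) rose by 0.69 in B16-F1R2 and was 0.54 lower in B16-F1R2L relative to B16-F1R2.

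The retinoblastoma gene Rb1 rose by 0.47 in B16-F1R2 and by 1.05 in B16-F1R2L, a difference of 0.58 between these lines (adjusted p = 0.016). E2f5 rose by 0.45 in B16-F1R2L. The inhibitor Cdkn1c was at 0.0510 FPKM and listed at 0 in the B16-F1 libraries, while B16-F1R2 had 2.11 and 1.62 and B16-F1R2L had 2.00 and 1.76. Mybl2, which encodes B-Myb, had log2 fold changes of 0.00 in B16-F1R2 and -0.25 in B16-F1R2L (adjusted p = 0.0086). The p53 target Cdkn1a passed the threshold in no comparison (0.05, -0.10 and -0.15). The inhibitor Cdkn1b fell by 0.36 in B16-F1R2, was at -0.05 in B16-F1R2L and was 0.30 higher in B16-F1R2L relative to B16-F1R2, and Rbl2, a repressor of mitotic genes in resting cells, fell by 0.45 and 0.29. Cdk2 was 0.43 higher and E2f6 0.39 lower in B16-F1R2L relative to B16-F1R2.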

How the data were processed

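The data were one deposited table of FPKM (fragments per kilobase of a transcript and per 1000000 reads mapped) for 23951 genes in 6 libraries, with replicates not pooled and every column assigned to a sample by its label. As the study's methods state, the authors prepared stranded libraries of polyadenylated RNA, read 50 bases from one end and aligned these reads to NCBI37/mm9 with 2 mismatches and up to 20 positions per read. The submitters' processing notes name TopHat2 2.0.10, Bowtie 1.0.0, SAMtools 0.1.1.9, FastQC 0.10.1, DESeq2 and Cuffnorm. The annotation and the use of strand in counting are not given in the sources used here. As FPKM differ from counts, the count test of the study was not used.

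Log2(FPKM + 0.1) was computed for the 11379 genes that reached 1 FPKM in 2 or more libraries, a scale that understates the change of low genes. The lines were fitted with limma 3.58.1 (R 4.3.3; lmFit, contrasts.fit, eBayes using a mean trend) over all 6 libraries without a block, with Benjamini-Hochberg adjustment over all tested genes and a threshold of 0.05. The procedure was tested on simulated data. The smallest two-sided p of an exact permutation test with 2 libraries per line is 0.333, and calls therefore depend on the pooling of spread over genes by limma. Nothing in the labels or methods tells whether a line's 2 libraries were grown as separate cultures, so that p-values measure the spread between these libraries, which may be technical. The table gives no read totals, and intervals that need counts were not computed. Depth was estimated from the lowest values of genes with 1 transcript.

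Genes were matched by symbol to the annotation of NCBIM37, the build of the authors. One alternative subtracted the part of each library predicted by GC content and length (splines of 4 degrees of freedom, robust regression in MASS 7.3.60.0.1). Promoters came from RefSeq windows on GRCm38.p6, a later build, and were matched by symbol. Other steps ran in Python 3.11.15 with numpy 2.4.6, pandas 2.3.3 and matplotlib 3.10.9. Alternatives were pseudocounts of 1 and 0.01, no filter or a filter of 5 FPKM, 3 scalings, no trend in eBayes, a fit of the 4 libraries compared alone, a replicate block, a log2 fold change of 1 as a minimum and the omission of each library.

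The members and all gene lists were chosen with earlier results of these data known. By rule, every member was named, library values were given for 8 cell cycle genes, for the 6 largest rises and falls past the threshold in each comparison and for the 3 highest and lowest members by mean FPKM, and the 3 largest rises and falls of each further list were named together with Mybl2, Cdkn1a, Cdkn1b, Rbl2, Ccnd1, Mcm2 and Pcna. Protein sequences were not analysed here.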

Additional observations from a re-analysis of the deposited data

Results flagged for a closer look

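For 9 mitosis genes the change against B16-F1 differed between B16-F1R2 and B16-F1R2L, by the test of the difference itself in limma, which is the comparison of the 2 metastatic lines. These are 18.4% of the members, against 22.6% of all tested genes, and 7 of the 9 calls, all but those of Cdc20 and Kif20a, were lost on leaving out single libraries. The difference on the log2 scale was -0.43 for Cdc20 (adjusted p = 0.0030), whose effects were 0.23 (B16-F1R2) and -0.20 (B16-F1R2L), and -0.36 for Kif20a (adjusted p = 0.0066), whose effects were 0.63 and 0.27. It was -0.25 for Aurka, with effects of 0.15 and -0.10, -0.24 for Plk1, with 0.06 and -0.18, and -0.23 for Ttk, with 0.44 and 0.21. It was -0.23 for Ube2c, -0.21 for Cdca3, -0.20 for Kif22 and -0.19 for Birc5, whose B16-F1R2L effects were all below 0. Having 2 libraries per line, single libraries were not examined for standing apart.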

How the results depend on the processing

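Where a minimum size of 1 was set for the log2 fold change, each count of mitosis genes and of other mitotic genes went to 0. In B16-F1R2 against B16-F1, the lower mitosis genes went from 3 to 9 under the GC and length correction. In B16-F1R2L against B16-F1, they went from 13 to 6 with libraries rescaled to a common sum and 8 under quantile normalization. In B16-F1R2L against B16-F1R2, higher mitosis genes went from 0 to 2 when rescaled, and lower ones from 9 to 2 when rescaled, 3 without a trend, 18 under the correction and 4 with only 4 libraries. Of the other mitotic genes there, the 1 higher gene went to 5 when rescaled, 2 under the correction and 0 under the other alternatives except eBayes without a trend and a pseudocount of 1, and the 16 lower ones to 8 without a filter, 4 rescaled, 10 under quantile normalization, 5 without a trend and 7 with 4 libraries. Leaving out 1 library gave 16 to 19 higher and 2 to 4 lower mitosis genes in B16-F1R2 against B16-F1, 15 to 16 and 7 to 13 in B16-F1R2L against B16-F1, and 0 and 2 to 6 between the metastatic lines, where a lone library is assumed to vary like the others. For other mitotic genes the ranges were 33 to 47 and 12 to 21, 24 to 38 and 15 to 21, and 0 and 0 to 11. The cause of these shifts was not tested. In B16-F1R2L against B16-F1, Nuf2 went from 0.03 to -0.13 (adjusted p = 0.022) and Ect2 from 0.02 to -0.17 (adjusted p = 0.031) under the correction.

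Replicate numbers paired no samples: deviations of same-numbered libraries correlated at 0.05, -0.10 and 0.08, and with a replicate block the mitosis genes numbered 18 higher and 3 lower, 16 and 12, and 0 and 7 in the 3 comparisons, and the other mitotic genes 45 and 18, 38 and 20, and 0 and 11. With B16-F1 numbers crossed in a block, chosen after seeing the data, B16-F1R2L against B16-F1 had 16 higher and 13 lower mitosis genes. Each member rested on an estimated 383 reads or more, and the precision is limited by the 2 libraries per line.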
